A study of Mus musculus with 20 samples.

Results

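The genes described here build the first steps of the secretory pathway, in which newly made proteins enter the endoplasmic reticulum (ER) and travel to the Golgi. They were found by their symbols: Srp, Sec61 to Sec63, Ssr, Sec11, Spcs, Sec13, Sec16, Sec22 to Sec24, Sec31, the coatomer genes and Tmed, without the Cops genes of the COP9 signalosome. The rule found 57 of the 23129 genes in the table, and 53 of them passed the filter on low counts that left 13237 genes for testing. Sec16b, Srp54c, Tmed6 and Tmed11 did not pass. Srp54c and Tmed11 had no count in any library, Tmed6 had 0.113 CPM in fasted wild-type replicate 4 and none elsewhere, and Sec16b reached 0.883 CPM at most.

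RNA was measured in AgRP neurons, a hypothalamic cell type that promotes feeding and releases agouti-related peptide together with neuropeptide Y. Neurons with the red reporter tdTomato were sorted from C57BL/6 mice of postnatal day 25 to 30, with 1000 cells in each sample. The 4 groups of 5 libraries were fasted and fed Phf6cKO mice, whose single X-linked allele was floxed (Phf6 flox/y) beside AgRP-Cre/+ and Ai9/+, and fasted and fed Phf6WT littermates with AgRP-Cre/+ and Ai9/+ alone. All of them therefore carried 1 copy of Cre, driven by Agrp, and of the Ai9 tdTomato reporter, so no group lacked Cre. Phf6 encodes a chromatin-associated protein. Fasting lasted overnight: the mice had water but no food from 5 pm of the previous day. The labels number the replicates but do not say that each library is a separate mouse, so p-values measure the spread between these samples.

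In this pathway the signal recognition particle (SRP) binds the signal sequence of a protein as it leaves the ribosome and brings the ribosome to the ER, where the Sec61 channel, helped by the TRAP complex, lets the chain through the membrane. The signal peptidase complex then cuts off the signal sequence. COPII-coated vesicles carry cargo out of the ER, COPI-coated vesicles return it from the Golgi, and p24 proteins, encoded by Tmed genes, act as cargo receptors in both. AgRP neurons secrete peptides, and every prepropeptide they make passes through this route.

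Depth ran from 8494499 to 10000278 counts in the 10 fasted libraries and from 10604977 to 13573524 in the 10 fed libraries, so no fasted library was as deep as a fed one, and the part of depth in the results was not tested. Levels are read counts scaled to library size (CPM) after scaling by trimmed mean of M values (TMM). Phf6 averaged 61.2 ± 6.9 CPM in fasted cKO, 70.7 ± 4.85 CPM in fed cKO, 128 ± 11 CPM in fasted wild type and 276 ± 10.2 CPM in fed wild type (SD, n = 5 each), and was lower in every cKO library than in every wild-type library of the same feeding state, though the counts cover the whole gene and do not separate the deleted part. The lowest library had 4259 CPM of Agrp and 15645 CPM of Npy, the defining markers of the labelled cells. Over all libraries, the 8 astrocyte markers summed to 185 to 295 CPM, the 8 markers of tanycytes and ependyma to 34.8 to 73.4, the 6 endothelial markers to 7.88 to 44.8 and the 6 markers of mural cells and fibroblasts to 2.48 to 8.9 CPM. The sums were at most 7.49 CPM for erythrocytes, 1.84 for microglia and 1.64 for oligodendrocyte precursors. In the fasted groups, replicates 1 and 2 differed from replicates 3 to 5 in several genes (Agrp was 17470 and 17826 CPM in fasted wild-type replicates 1 and 2 and 12998 to 13245 CPM in replicates 3 to 5). The labels name no batch, so the members' counts were also taken with each set alone.

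Fasting raised most of the pathway in both genotypes. In cKO neurons 39 of the 53 tested members rose and 3 fell (adjusted p under 0.05, edgeR quasi-likelihood test), where 26.0% of all tested genes rose and 27.0% fell (53.1% changed). In wild-type neurons 39 rose and 6 fell, where 29.6% of all tested genes rose and 31.3% fell (60.9% changed). The median log2 fold change of the tested members was 0.56 in cKO and 0.48 in wild type, and that of all tested genes was -0.03 in each. Together the 57 members measured 14377, 15355, 14429, 14021 and 14257 CPM in the fasted cKO libraries and 8962, 9014, 9295, 8995 and 9069.5 CPM in the fed ones. In wild type their sum was 15055, 14671, 13627, 14016 and 13978 CPM when fasted and 9007, 9151, 9067, 9328 and 9276 CPM when fed. Each fasted library lay above every fed library in this sum.

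**Figure D1:**
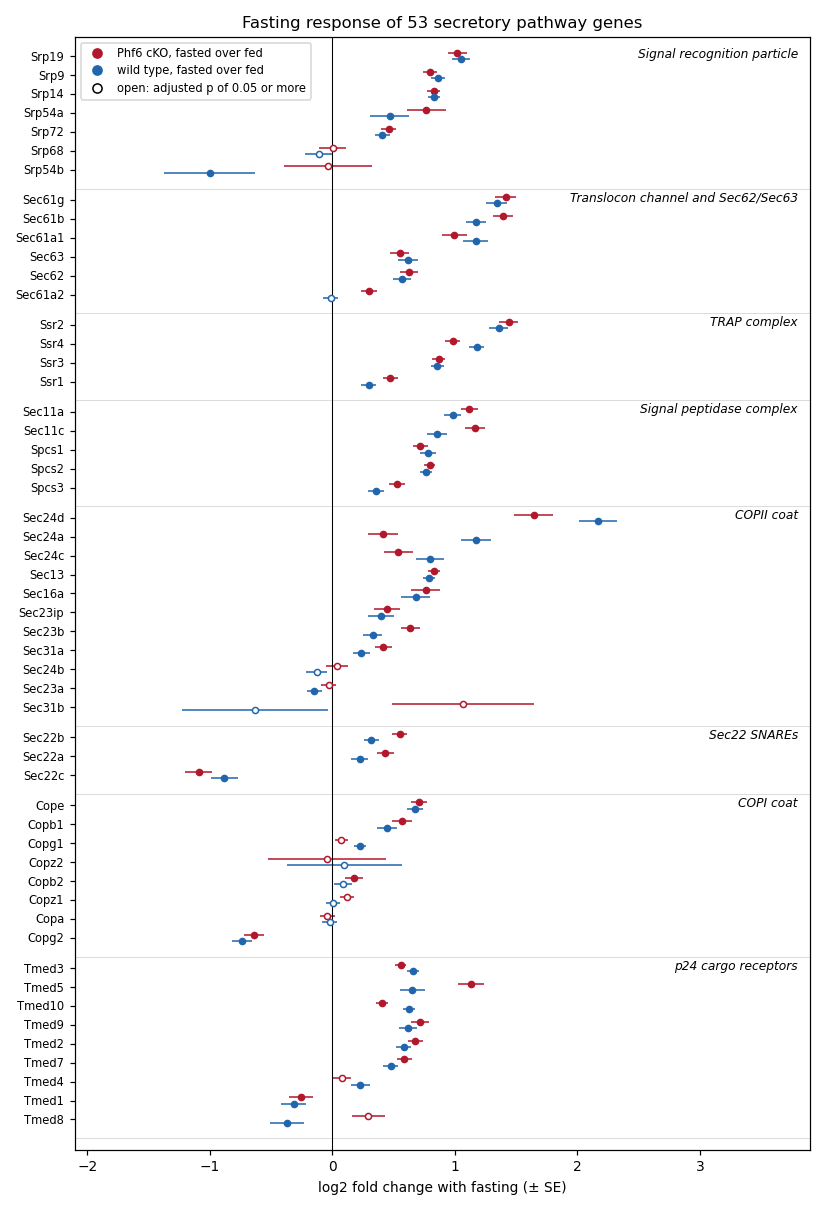
Log2 fold change with fasting (x axis, ± SE) of the 53 tested members, grouped by role down the page, in Phf6 cKO (red) and wild type (blue); open points have an adjusted p of 0.05 or more. Most points lie right of 0 in both genotypes, while Sec22c, Copg2 and Tmed1 lie left of 0 in both.

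In total 37 members rose in both genotypes and 3 fell in both, and the share of all tested genes that did so was not counted. The fasting comparisons of the 2 genotypes share no library, but they come from 1 model with a shared estimate of the spread. Copg1, Sec23a, Srp54b, Tmed4 and Tmed8 passed the test in wild type and not in cKO, and Copb2 and Sec61a2 in cKO and not in wild type. Of these 7 genes, the difference between the genotypes itself passed the test for Tmed8 and Sec61a2. Copa, Copz1, Copz2, Sec24b, Sec31b and Srp68 passed in neither. With fasted replicates 1 and 2 alone 39 rose and 3 fell in cKO and 36 rose and 4 fell in wild type, and with replicates 3 to 5 alone 41 and 2 in cKO and 38 and 5 in wild type. The shares of all tested genes given above belong to the fit of all 20 libraries, not to these fits. In wild type the calls of Sec23b, Sec23ip, Srp54b, Tmed1, Tmed4 and Tmed8 were lost with the first set, and those of Srp54a, Sec22a and Sec23a with the second. In cKO those of Sec24a and Copb2 were lost with the first set and that of Tmed1 with the second.

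The median log2 fold change of the TRAP genes was 0.93 in cKO and 1.02 in wild type, that of the translocon genes 0.81 and 0.89, and that of the signal peptidase genes 0.79 and 0.78. The COPII genes had medians of 0.54 in cKO and 0.40 in wild type, and the COPI genes 0.10 and 0.09. These medians are descriptions, and the roles were not tested against each other. The counts by role below stand against 26.0% of all tested genes higher and 27.0% lower in cKO. In wild type those shares were 29.6% and 31.3%.

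**Figure D2:**
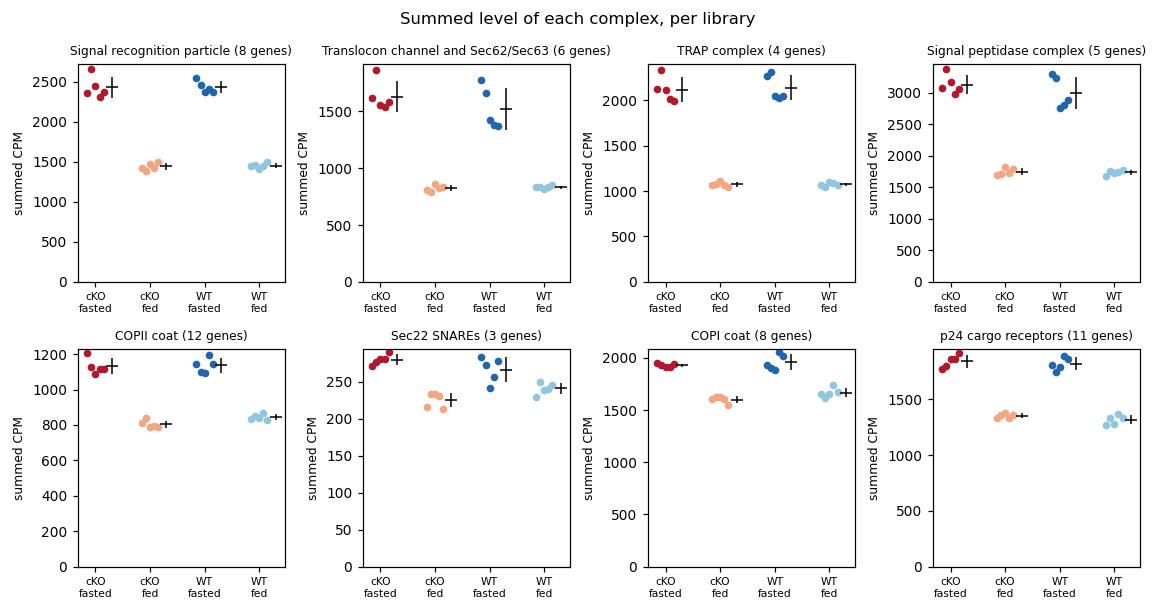
Summed CPM (y axis, from 0) of the genes of each role in every library, with the mean and SD of each group beside its 5 points (groups run from fasted cKO on the left to fed wild type on the right). Translocon sums were 1631 ± 133 CPM in fasted cKO against 823 ± 25.3 CPM in fed cKO, while COPI sums were 1929 ± 15.1 against 1599.9 ± 32.4 CPM.

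Of the SRP genes, 5 of 7 tested rose in cKO and none fell, and in wild type 5 rose and Srp54b fell. Srp9 and Srp14 form the pair that slows the ribosome while the particle docks. Srp14 stood at 1195, 1367, 1208, 1115 and 1156 CPM in the fasted cKO libraries and at 662, 649, 704, 685 and 707 CPM in the fed cKO libraries. In wild type, Srp14 stood at 1242, 1229, 1178, 1178 and 1117 CPM when fasted and at 653, 682, 662, 653 and 689 CPM when fed. Every fasted library exceeded every fed one in both genotypes, with a log2 fold change of 0.83 ± 0.05 in cKO (adjusted p = 1.99e-13) and 0.83 ± 0.05 in wild type (adjusted p = 5.59e-14). With offsets for GC content and length these changes were 0.49 and 0.39, still past the threshold. Srp14 had the highest level per kilobase of exon of all members, 1011 CPM per kb in fasted cKO and 559 CPM per kb in fed wild type.

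Srp9 stood at 418, 511, 522, 492 and 509 CPM in the fasted cKO libraries and at 275, 261, 297, 268 and 309 CPM in the fed cKO libraries. In wild type, Srp9 stood at 552, 553, 518, 521 and 534 CPM when fasted and at 286, 301, 285, 295 and 307 CPM when fed. Its fasted and fed libraries did not overlap either, and the log2 fold change was 0.80 ± 0.058 in cKO (adjusted p = 5.62e-12) and 0.86 ± 0.058 in wild type (adjusted p = 4.85e-13). Srp19, which helps the particle assemble on its RNA, rose by 1.02 in cKO and 1.05 in wild type on the log2 scale, and Srp72 by 0.46 and 0.41. Srp68, the partner of Srp72, was at 0.00 ± 0.11 in cKO and -0.11 ± 0.11 in wild type and did not pass.

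Srp54 carries the GTPase that holds the signal sequence. The mouse table lists it as Srp54a, Srp54b and Srp54c, near-identical copies side by side on chromosome 12, so their counts are uncertain. Srp54b stood at 13.3, 21.8, 30.4, 26.4 and 25.5 CPM in the fasted cKO libraries and at 41.7, 26.7, 5.82, 34.8 and 12.4 CPM in the fed cKO libraries. In wild type, Srp54b stood at 27.8, 7.23, 7.05, 10.7 and 14.9 CPM when fasted and at 32.8, 18.2, 23.4, 39.9 and 21.4 CPM when fed. Its fed wild-type libraries spread from 18.2 to 39.9 CPM and overlapped the fasted ones, and the fall in wild type (-1.001 ± 0.37, adjusted p = 0.0219) no longer passed in 6 of 32 alternatives, including a DESeq2 Wald test and the fits without fasted wild-type replicate 2 or 3 or fed wild-type replicate 4 (adjusted p up to 0.208). In cKO it was at -0.03 ± 0.36 (adjusted p = 0.947). Srp54a rose in cKO (0.77 ± 0.16) and in wild type (0.47 ± 0.16), where the call was lost without fasted wild-type replicate 2 or fed wild-type replicate 4.

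All 6 genes of the translocon and of Sec62 and Sec63 rose in cKO, and 5 of 6 rose in wild type. The channel has a large alpha subunit and 2 small ones, beta and gamma. Sec61g stood at 387, 501, 397, 389 and 392 CPM in the fasted cKO libraries and at 150.3, 156, 158, 157 and 154 CPM in the fed cKO libraries. In wild type, Sec61g stood at 486, 429, 344, 335 and 333 CPM when fasted and at 149, 156, 158, 143 and 154 CPM when fed. Fasted cKO replicate 2 was the highest of its group, and the fasted and fed libraries did not overlap. The log2 fold change was 1.41 ± 0.086 in cKO (adjusted p = 1.99e-13) and 1.34 ± 0.086 in wild type (adjusted p = 1.86e-13), a 2.66-fold and a 2.53-fold difference.

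Sec61b stood at 549.6, 649, 546, 531 and 533 CPM in the fasted cKO libraries and at 199, 194, 234, 215 and 226 CPM in the fed cKO libraries. In wild type, Sec61b stood at 632, 606, 486, 471 and 456 CPM when fasted and at 225, 240.4, 234, 236 and 241 CPM when fed. The fed libraries lay within 194 to 241 CPM and every fasted one lay above them. Sec61b changed by 1.39 ± 0.08 in cKO (adjusted p = 5.59e-14) and 1.17 ± 0.079 in wild type (adjusted p = 5.07e-13). Sec62 and Sec63, which help bring in short or finished chains, rose by 0.62 and 0.55 in cKO and by 0.57 and 0.62 in wild type on the log2 scale.

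Of the paired genes for the alpha subunit, Sec61a2 was the more abundant per kilobase of exon in every group. Sec61a1 stood at 39.4, 43.3, 35.2, 46.9 and 41.4 CPM in the fasted cKO libraries and at 21.7, 21.3, 17.7, 22.2 and 20.5 CPM in the fed cKO libraries. In wild type, Sec61a1 stood at 53.4, 59.8, 55.6, 44.1 and 43.6 CPM when fasted and at 26.2, 20.7, 20.9, 22 and 24.2 CPM when fed. It rose by 0.996 ± 0.10 in cKO (adjusted p = 5.81e-09) and 1.17 ± 0.10 in wild type (adjusted p = 1.14e-10), and no fasted library reached down to a fed one. Sec61a1 made up 12.7% ± 1.09 of the alpha-subunit level per kilobase in fasted cKO and 8.27% ± 0.90 in fed cKO, and 18.4% ± 2.27 in fasted wild type and 9.05% ± 0.84 in fed wild type (SD, n = 5 each).

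Sec61a2 stood at 203, 204, 178, 189.8 and 187 CPM in the fasted cKO libraries and at 167, 160.2, 163, 149 and 143 CPM in the fed cKO libraries. In wild type, Sec61a2 stood at 138, 165, 157, 147 and 164 CPM when fasted and at 157, 154, 146, 168 and 153 CPM when fed. The fasted cKO libraries, from 178 to 204 CPM, lay above those of the other 3 groups, which overlapped each other. The fasting change was 0.30 ± 0.062 in cKO (adjusted p = 0.000186) and -0.01 ± 0.062 in wild type (adjusted p = 0.866). Nudt5, on the opposite strand, shares 19.9% of the Sec61a2 exon bases, and in an unstranded library its reads there cannot be told apart.

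Each of the 4 TRAP genes rose in both genotypes. Ssr2 stood at 629.8, 676, 558, 538 and 523 CPM in the fasted cKO libraries and at 219.6, 189, 224, 224 and 223 CPM in the fed cKO libraries. In wild type, Ssr2 stood at 604, 658, 515, 516 and 493 CPM when fasted and at 214, 207, 209.6, 228 and 229 CPM when fed. Ssr2, the beta subunit, changed by 1.44 ± 0.077 in cKO (adjusted p = 1.76e-14) and 1.36 ± 0.077 in wild type (adjusted p = 1.7e-14), with no overlap. A pseudogene on the opposite strand shares 12.8% of its exon bases.

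Ssr4 stood at 798, 924, 812, 770.3 and 747 CPM in the fasted cKO libraries and at 383, 428, 419, 408 and 414 CPM in the fed cKO libraries. In wild type, Ssr4 stood at 941, 954, 837, 776 and 771 CPM when fasted and at 396, 380.3, 368, 374 and 371 CPM when fed. The delta subunit thus changed by 0.98 ± 0.062 in cKO (adjusted p = 4.22e-13) and 1.18 ± 0.062 in wild type (adjusted p = 3.85e-15), and its fasted and fed libraries were separate. Ssr3 stood at 399, 403, 437, 419 and 427 CPM in the fasted cKO libraries and at 243, 228, 238, 219 and 214 CPM in the fed cKO libraries. In wild type, Ssr3 stood at 440.0, 423, 404, 427 and 469 CPM when fasted and at 232, 234, 249, 252 and 227 CPM when fed. The gamma subunit changed by 0.87 ± 0.053 in cKO (adjusted p = 1.81e-13) and 0.86 ± 0.053 in wild type (adjusted p = 7.07e-14), again without overlap. Ssr1, the alpha subunit, changed least of the TRAP genes (0.47 ± 0.061 and 0.30 ± 0.061).

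The signal peptidase genes, 5 of 5, rose in both genotypes. Spcs2 stood at 1173, 1266, 1264, 1185 and 1242 CPM in the fasted cKO libraries and at 683, 684, 740.4, 707 and 723 CPM in the fed cKO libraries. In wild type, Spcs2 stood at 1280.4, 1250.0, 1166, 1184 and 1226 CPM when fasted and at 681, 736, 688, 734 and 756 CPM when fed. Spcs2, an accessory subunit, had 1.73-fold higher levels with fasting in cKO and 1.7-fold in wild type (log2 0.79 ± 0.046, adjusted p = 6.4e-14, and 0.76 ± 0.046, adjusted p = 4.17e-14), with no overlap. Spcs1, next to it in the complex, rose by 0.72 and 0.78 on the log2 scale. With offsets for GC content and length the Spcs1 changes were 0.30 and 0.36, and Glt8d1 on the opposite strand shares 16.3% of its exon bases.

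The catalytic subunits are Sec11a and Sec11c. Sec11a stood at 552, 559, 500.1, 481 and 478 CPM in the fasted cKO libraries and at 230.3, 235, 247, 229 and 242 CPM in the fed cKO libraries. In wild type, Sec11a stood at 493, 511, 374, 419 and 408 CPM when fasted and at 226, 225, 212, 226 and 227 CPM when fed. Sec11a changed by 1.12 ± 0.068 in cKO (adjusted p = 2.01e-13) and 0.98 ± 0.068 in wild type (adjusted p = 9.23e-13), and every fasted library lay above the fed ones. Sec11c changed by 1.17 in cKO and 0.85 in wild type. Spcs3 stood at 182, 156, 186, 179 and 169.8 CPM in the fasted cKO libraries and at 129.5, 127, 119.9, 120.3 and 108 CPM in the fed cKO libraries. In wild type, Spcs3 stood at 152, 147, 134, 151 and 156 CPM when fasted and at 109, 113, 129, 109 and 116 CPM when fed. Spcs3, an accessory subunit, changed by 0.53 ± 0.065 in cKO (adjusted p = 9.42e-08) and 0.36 ± 0.065 in wild type (adjusted p = 2.65e-05), with no overlap. The cKO change of Spcs3 was 0.33 with the GC and length offsets.

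In the COPII coat 8 of 11 tested genes rose in cKO and none fell, and in wild type 8 rose and Sec23a fell. Sec24 proteins select the cargo of the vesicle, and Sec24d changed most of all 53 tested members in each genotype. Sec24d stood at 39, 34.7, 53.4, 40.5 and 53.8 CPM in the fasted cKO libraries and at 10.7, 20.6, 10.6, 13.6 and 15.1 CPM in the fed cKO libraries. In wild type, Sec24d stood at 56.6, 51.7, 54.7, 71.5 and 58.8 CPM when fasted and at 13.7, 14.2, 11.7, 9.81 and 15.7 CPM when fed. Its fasted libraries, at 34.7 CPM or more, lay above all fed libraries, at 20.6 CPM or less. That was a log2 fold change of 1.64 ± 0.16 in cKO (3.13-fold, adjusted p = 1.17e-09) and 2.17 ± 0.16 in wild type (4.5-fold, adjusted p = 2.67e-12).

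The other Sec24 genes differed among themselves. Sec24a changed by 0.41 ± 0.12 in cKO (adjusted p = 0.00599) and 1.17 ± 0.12 in wild type (adjusted p = 2.39e-09), and Sec24c by 0.54 and 0.80. Sec24b averaged 55.5 ± 8.03 CPM in fasted cKO and 54.1 ± 1.9 in fed cKO, and 52.4 ± 5.81 in fasted wild type and 57.2 ± 3.59 in fed wild type (SD, n = 5 each), and did not pass in either genotype (adjusted p = 0.756 and 0.213). Shares of the family were described without a test. Per kilobase of exon, Sec24d was 29.7% ± 5.25 of the Sec24 level in fasted cKO and 13.5% ± 3.21 in fed cKO, and 33.7% ± 3.34 in fasted wild type and 12.4% ± 2.23 in fed wild type. Sec24b was 39.2% ± 5.09 in fasted cKO and 55.1% ± 3.62 in fed cKO, and 31.7% ± 2.71 in fasted wild type and 57.3% ± 1.38 in fed wild type.

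**Figure D3:**
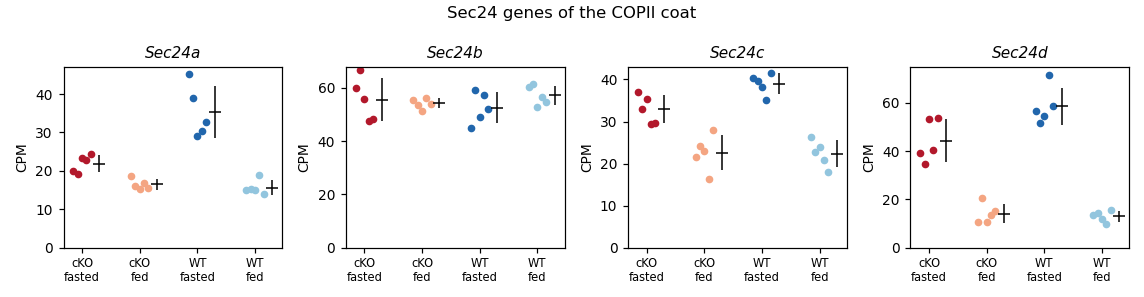
CPM (y axis, from 0) of the Sec24 genes in each of the 20 libraries, with the mean and SD of each group (SD bars beside the points). Sec24d is higher in all fasted libraries of both genotypes, Sec24b did not pass in either genotype, and Sec24a reaches 29.1 to 45.4 CPM in fasted wild type against 19.1 to 24.4 CPM in fasted cKO.

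Sec13 is part of the outer coat and also of nuclear pores. Sec13 stood at 396, 384, 362, 391 and 355 CPM in the fasted cKO libraries and at 215, 213, 215, 207 and 212 CPM in the fed cKO libraries. In wild type, Sec13 stood at 401, 414, 371, 390.4 and 382 CPM when fasted and at 231, 214, 224, 233 and 233 CPM when fed. It changed by 0.83 ± 0.048 in cKO (adjusted p = 8.12e-14) and 0.79 ± 0.048 in wild type (adjusted p = 7.05e-14), and all fasted libraries exceeded all fed ones. Its partner Sec31a rose by 0.42 and 0.24. Sec16a, which marks the sites where vesicles form, rose by 0.76 and 0.68.

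The inner coat has Sec23a or Sec23b. Sec23a stood at 232, 210.2, 231, 231 and 233 CPM in the fasted cKO libraries and at 244, 242, 227, 234 and 215 CPM in the fed cKO libraries. In wild type, Sec23a stood at 214, 184, 215, 240.2 and 221 CPM when fasted and at 217, 236, 243, 257 and 237 CPM when fed. In cKO the fasted and fed libraries overlapped (-0.03 ± 0.062, adjusted p = 0.718), and in wild type the small fall (-0.15 ± 0.062, adjusted p = 0.039) was also between overlapping groups. That call was lost in 11 of 32 alternatives, among them the fits without fasted wild-type replicate 1, 2 or 3 or fed wild-type replicate 2, 3, 4 or 5, and without replicate 2 the change was -0.10. Sec23b rose in both, by 0.64 ± 0.077 in cKO and 0.33 ± 0.077 in wild type, and per kilobase it was 37.5% ± 2.63 of the Sec23 level in fasted cKO against 27.5% ± 0.56 in fed cKO, and 36.1% ± 1.41 in fasted wild type against 28.9% ± 2.08 in fed wild type.

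Promoters of the members were read from RefSeq (GRCm38.p6), 250 bases before to 50 bases after each start, and 48 of the 57 genes had an entry. Searched on both strands, the core of the unfolded protein response element (UPRE, TGACGTGG) was in the promoters of 5 of the 48, or 10.4%: Copb1, Copb2, Sec16b, Sec23a and Sec24d. Among the 45 tested members with an entry it was in 4, or 8.89%, and among the 10082 tested genes with an entry in 1.09%. The cAMP response element (CRE, TGACGTCA) was in 1 of the 45 tested members, Cope, or 2.22%, against 3.61% of tested genes, and it overlaps none of the UPRE matches. The ER stress element (ERSE, CCAAT and CCACG separated by 9 bases) was in none of the 45, against 0.179% of tested genes. The windows below show the UPRE core in capitals, on either strand, in the 4 tested members that hold it, 5′ to 3′ along the gene and ending at most 20 bases into the transcript. They are shown because the largest rise (Sec24d) and a member that did not rise (Sec23a) carry the same letters, and a match is a description, not a binding site.
Sec24d (chr3:123267424-123267515, + strand): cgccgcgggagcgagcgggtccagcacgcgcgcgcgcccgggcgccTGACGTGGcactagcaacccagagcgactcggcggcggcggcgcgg
Sec23a (chr12:59011998-59012057, - strand): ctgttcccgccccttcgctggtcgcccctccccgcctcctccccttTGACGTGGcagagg
Copb1 (chr7:114254661-114254754, - strand): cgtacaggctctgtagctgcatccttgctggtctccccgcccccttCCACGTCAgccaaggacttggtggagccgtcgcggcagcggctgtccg
Copb2 (chr9:98563678-98563750, + strand): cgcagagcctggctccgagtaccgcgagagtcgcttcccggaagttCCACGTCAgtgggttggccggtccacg

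Beside these letters, Sec24d changed by 1.64 in cKO and 2.17 in wild type with fasting, Copb1 by 0.57 and 0.45, Copb2 by 0.18 and 0.09, and Sec23a by -0.03 and -0.15. The first base of the match lies 26 bases before the start in Sec24d, 28 before in Copb1, 7 before in Copb2 and 6 after in Sec23a. Copb1 and Copb2 carry it as the reverse complement, CCACGTCA. The change of Copb2 in cKO did not pass in 18 of 32 alternatives, among them the fits without fasted cKO replicate 1, 4 or 5, fed cKO replicate 1, 3, 4 or 5, fasted wild-type replicate 3, or any one fed wild-type replicate, and that of Copb1 in wild type was 0.13 with fasted replicates 1 and 2 alone.

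The Sec22 genes split. Sec22b, a SNARE protein of vesicles between ER and Golgi, rose by 0.55 ± 0.058 in cKO and 0.32 ± 0.058 in wild type, and its relative Sec22a rose by 0.43 and 0.22. Sec22c stood at 14.9, 18.8, 24.2, 21.6 and 20.7 CPM in the fasted cKO libraries and at 46.1, 42.2, 43.2, 44.3 and 38 CPM in the fed cKO libraries. In wild type, Sec22c stood at 21.7, 20.9, 21.4, 19.7 and 26.8 CPM when fasted and at 36.9, 46.1, 43, 36.3 and 41.5 CPM when fed. All fasted libraries of Sec22c lay below all fed ones, and the gene was 2.13-fold lower in cKO (log2 -1.09 ± 0.11, adjusted p = 3.16e-09) and 1.84-fold in wild type (log2 -0.88 ± 0.11, adjusted p = 7.28e-08).

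In the COPI coat 3 of 8 genes rose, 1 fell and 4 did not pass in each genotype. Over all tested genes 53.1% changed in cKO and 60.9% in wild type. Cope and Copb1 rose in both, Cope by 0.71 ± 0.067 in cKO and 0.67 ± 0.067 in wild type and Copb1 by 0.57 ± 0.082 and 0.45 ± 0.082. Copa, the largest subunit, was at -0.04 ± 0.058 (adjusted p = 0.587) in cKO and -0.02 ± 0.058 (adjusted p = 0.75) in wild type. Copg2 stood at 55, 44, 46.9, 47.6 and 55.2 CPM in the fasted cKO libraries and at 74.7, 87.3, 67.5, 83.3 and 73.6 CPM in the fed cKO libraries. In wild type, Copg2 stood at 51.8, 54.8, 47.4, 49.1 and 45.6 CPM when fasted and at 79, 76.7, 82.9, 91.8 and 84.4 CPM when fed. Copg2, one of the paired genes for the gamma subunit, was lower in all fasted libraries than in all fed ones, with a log2 fold change of -0.64 ± 0.082 in cKO (adjusted p = 2.16e-07) and -0.74 ± 0.082 in wild type (adjusted p = 8.85e-09). It made up 28.3% ± 2.11 of the gamma-subunit level per kilobase in fasted cKO and 39.2% ± 2.36 in fed cKO, and 26.5% ± 1.76 in fasted wild type and 41.3% ± 1.48 in fed wild type. Mest, on the opposite strand, shares 17.8% of the Copg2 exon bases, so reads there cannot be told apart.

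Of the 9 tested Tmed genes, grouped by their symbol, 6 rose and 1 fell in cKO, and 7 rose and 2 fell in wild type. Tmed2, Tmed3, Tmed5, Tmed7, Tmed9 and Tmed10 rose in both, with log2 fold changes of 0.68, 0.56, 1.13, 0.59, 0.71 and 0.41 in cKO and 0.58, 0.66, 0.65, 0.48, 0.61 and 0.63 in wild type. Tmed2 and Tmed10 are the p24 pair best known as cargo receptors. Tmed4 rose in wild type (0.23 ± 0.078, adjusted p = 0.0131), a call lost in 5 of 32 alternatives: with the GC and length offsets, alone or with a replicate block, with fasted replicates 1 and 2 alone, where the value turned to -0.05, and without fasted wild-type replicate 4 or 5. In cKO it was at 0.08 ± 0.078 (adjusted p = 0.416). Tmed1 stood at 36.3, 31.2, 36.4, 39.7 and 35.2 CPM in the fasted cKO libraries and at 41.8, 42.9, 40.7, 40.1 and 47.8 CPM in the fed cKO libraries. In wild type, Tmed1 stood at 38.1, 40.7, 32.1, 35.2 and 28.8 CPM when fasted and at 45.6, 37.5, 42.2, 52.3 and 39.9 CPM when fed. Its fasted and fed groups overlapped in wild type (-0.32 ± 0.099, adjusted p = 0.00719) and were separate in cKO (-0.25 ± 0.099, adjusted p = 0.0324). The cKO call was lost in 5 of 32 alternatives, among them the fits without fasted or fed cKO replicate 2 or 5, and the wild-type call with fasted replicates 1 and 2 alone. Dnm2 on the opposite strand shares 13.6% of the Tmed1 exon bases.

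**Figure D4:**
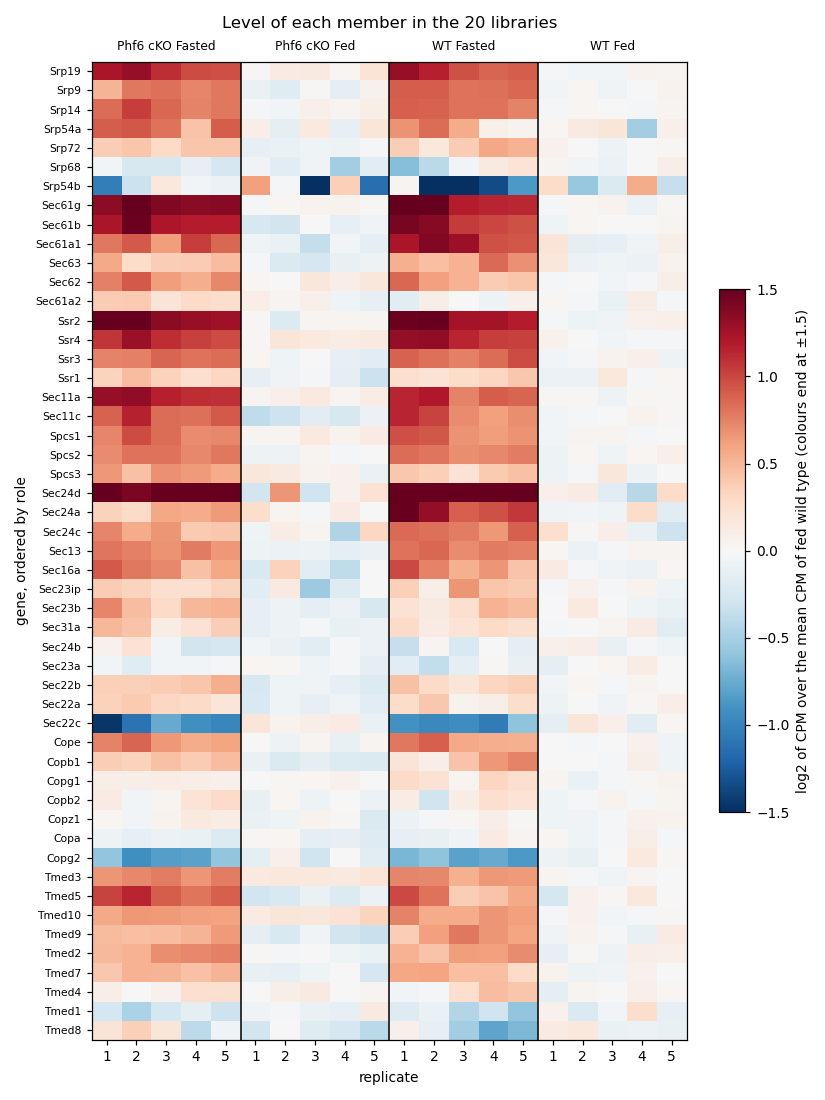
Level of 51 tested members (rows, by role) in the 20 libraries (columns, by group and replicate), as log2 of CPM over the mean CPM of fed wild type, with colours ending at ±1.5; Sec31b and Copz2, which include libraries near 0, are left out. The fasted columns of both genotypes are red for most rows and blue for Sec22c and Copg2.

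Other genes of the pathway were taken from lists made from general knowledge. Of 112 tested, 67 rose and 13 fell in cKO and 60 rose and 20 fell in wild type, with median log2 fold changes of 0.32 and 0.24. The counts of these lists stand against 26.0% of all tested genes higher and 27.0% lower in cKO, and 29.6% higher and 31.3% lower in wild type. Of the 12 oligosaccharyltransferase genes, which attach glycans to proteins entering the ER, 11 rose in cKO and 10 in wild type and none fell. Ostc changed by 1.30 in cKO and 1.14 in wild type, Stt3b, a catalytic subunit, by 1.23 and 1.58, and Krtcap2, whose exons overlap Trim46 by 15.7%, by 1.37 and 1.28. Among the SRP receptor and translocon partners 9 of 14 rose in each genotype and none fell, with Tram1, a helper of the channel, at 1.35 and 1.33.

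The ER membrane protein complex and tail-anchor insertion genes provide another way into the ER membrane. In cKO 5 of 16 rose and 6 fell, and in wild type 4 rose and 5 fell, with Emc7 at 0.71 and 1.04 and Emc10 at -0.65 and -0.60. Of 22 tested COPII regulators and cargo receptors 16 rose and 3 fell in cKO, and 13 rose and 4 fell in wild type. Kdelr2, which returns ER proteins, changed by 1.09 and 0.93, and Sar1b, the GTPase that starts the COPII coat, by 0.85 and 0.91. Of 16 COPI partners and Arf genes 9 rose and 1 fell in cKO and 8 rose and 4 fell in wild type, with Arcn1, the delta subunit of the coat, at 0.56 and 0.46. Of 32 tethers, SNAREs and Rab genes 17 rose and 3 fell in cKO and 16 rose and 7 fell in wild type. Of 10 tested genes on a list of transcription factors of secretory genes and their activators 8 rose and 1 fell in cKO and 8 rose and none fell in wild type. The list includes Ern1, the ER kinase and nuclease that splices Xbp1 RNA, and the proteases Mbtps1 and Mbtps2, which cut Atf6, and Mbtps1 was the gene that fell in cKO (-0.59). Atf6 changed by 0.88 and 1.41, Xbp1 by 0.74 and 0.53, Atf4 by 0.51 and 0.81, and Creb3, which overlaps Tln1, by 0.72 and 0.76.

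Some markers of other cells also changed with fasting, as did 53.1% of all tested genes in cKO and 60.9% in wild type. The 6 oligodendrocyte markers summed to 49.4 to 65.5 CPM in fasted cKO and 82.6 to 102 CPM in fed cKO libraries, and to 49.1 to 73.5 CPM in fasted and 90.5 to 103 CPM in fed wild-type libraries. Of the 4 tested, 2 fell in cKO and 3 in wild type. Of 6 tested astrocyte markers 1 rose and 1 fell in cKO and 2 rose and 1 fell in wild type, and of 6 tested tanycyte and ependyma markers 2 rose and 1 fell in each genotype. Of 3 tested endothelial markers none passed in cKO and 2 rose in wild type, and of 3 tested Pomc-neuron markers 2 rose in cKO and 1 in wild type. The part of these markers in the members' changes was not tested. The 7 AgRP markers summed to 50524 to 69060.2 CPM in fasted cKO and 26626 to 31252 CPM in fed cKO, and to 59029 to 84678 CPM in fasted and 20638 to 22785 CPM in fed wild-type libraries. Of these 7 markers 5 rose and 1 fell in each genotype. Their log2 fold changes ran from -1.62 to 1.21 in cKO and from -2.17 to 2.12 in wild type. In bulk libraries a change in the share of cells and a change in RNA per cell cannot be told apart.

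The 53 tested members had a median exon length of 4840 bp and a GC content of 46.6%, against 4486 bp and 49.5% for 12713 tested genes with an annotation. Across the 53 members, which share the same libraries, the fasting change had a Spearman correlation of -0.19 with exon length in cKO and -0.14 in wild type. Over the 12713 genes it was -0.09 and -0.10. With GC content the correlation was -0.02 in cKO and 0.02 in wild type across the members, and -0.23 and -0.14 over the 12713 genes. The 26 shorter members had median log2 fold changes of 0.71 in cKO and 0.63 in wild type, and the other 27 had 0.46 and 0.41. With offsets for GC content and length these medians were 0.54 and 0.48 for the shorter members and 0.46 and 0.40 for the others. The members' correlations with length were then -0.08 and -0.02. With offsets for GC content and length 39 members rose and 4 fell in cKO, and 38 rose and 6 fell in wild type.

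The genotypes were also compared within each feeding state. In fed neurons 2 of 53 members were higher in cKO than in wild type and none was lower, where 5.87% of all tested genes were higher and 3.81% lower (9.68% in either direction). At an unadjusted p under 0.05, 2 members were higher, and the share of all tested genes at that threshold was not counted. At the same threshold 5 members were lower (Ssr1, Sec11c, Sec22b, Copb1 and Tmed9), and the DESeq2 Wald test also called none. The median log2 fold change of the members was -0.06. Tmed10 stood at 309, 327, 325, 319.9 and 318 CPM in the fasted cKO libraries and at 228, 237, 235, 243 and 263 CPM in the fed cKO libraries. In wild type, Tmed10 stood at 348, 306, 308, 329 and 318 CPM when fasted and at 206, 218, 203, 205 and 211 CPM when fed. In the fed groups every cKO library lay above every wild-type library (0.21 ± 0.05, adjusted p = 0.00699), and this call was kept in all alternatives. Tmed3 stood at 352, 366, 379, 354 and 379.6 CPM in the fasted cKO libraries and at 247, 248, 248, 245 and 257 CPM in the fed cKO libraries. In wild type, Tmed3 stood at 369, 367, 322, 350.2 and 348 CPM when fasted and at 229, 220.2, 215, 229 and 222 CPM when fed. Fed cKO libraries of Tmed3 were also above all fed wild-type ones (0.16 ± 0.048, adjusted p = 0.0322), but the call was lost in 9 alternatives, 8 of which left out 1 library (any fed cKO replicate, or fed wild-type replicate 2, 3 or 5), with adjusted p up to 0.0893. When the fed libraries were fitted alone, 10 members passed as lower. The 3.81% above belongs to the fit of all 20 libraries and is not the share for that fit.

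In fasted mice 5 of 53 members were higher in cKO than in wild type and 2 were lower, where 11.5% of all tested genes were higher and 8.84% lower (20.3% in either direction). With upper-quartile scaling the counts over all tested genes were 1232 higher and 1575 lower, in place of 1517 and 1170. Sec61a2, Spcs3, Sec11a, Tmed8 and Tmed5 were higher in cKO and Sec24a and Sec61a1 were lower. The Sec24a and Sec61a2 calls were kept in every alternative and the other 5 were lost in some. Sec24a stood at 19.9, 19.1, 23.3, 22.9 and 24.4 CPM in the fasted cKO libraries and at 18.7, 16, 15.3, 17 and 15.5 CPM in the fed cKO libraries. In wild type, Sec24a stood at 45.4, 38.9, 29.1, 30.3 and 32.7 CPM when fasted and at 15, 15.2, 15, 18.9 and 13.9 CPM when fed. The 5 fasted cKO libraries of Sec24a lay below the 5 fasted wild-type ones (-0.68 ± 0.12, adjusted p = 0.000245). With fasted replicates 1 and 2 alone the difference was -1.099, and with replicates 3 to 5 alone it was -0.39, past the threshold in each. For Sec61a2 the difference was 0.32 ± 0.063 (adjusted p = 0.000644), with all fasted cKO libraries above all fasted wild-type ones.

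For the other 5 members the fasted cKO and fasted wild-type libraries overlapped. Spcs3 was at 0.24 ± 0.065 (adjusted p = 0.0105), and at 0.14 and no longer past the threshold with offsets for GC content and length. Sec11a was at 0.22 ± 0.068 (adjusted p = 0.0197), and lost its call without fasted cKO replicate 2 or fasted wild-type replicate 3. Sec61a1 was at -0.31 ± 0.10 (adjusted p = 0.0282), and lost it without fasted cKO replicate 1 or 3 or fasted wild-type replicate 2 or 3. Tmed8 (0.45 ± 0.14, adjusted p = 0.0217) and Tmed5 (0.31 ± 0.10, adjusted p = 0.0324) lost theirs without fasted cKO replicate 2 or any one of fasted wild-type replicates 3 to 5, and Tmed5 also without fasted cKO replicate 1. Sec24d, which changed most with fasting, was at -0.40 ± 0.15 and missed the threshold (adjusted p = 0.054, past it in 9 of 32 alternatives). With fasted replicates 3 to 5 alone 10 members passed as higher and 6 as lower, and with the fasted libraries fitted alone 1 and 1. The shares of all tested genes given for fasted mice belong to the fit of all 20 libraries, not to these.

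The 4 Pomc-neuron markers summed to 444, 535, 832, 1102 and 941 CPM in the fasted cKO libraries, against 318 to 423 CPM in fed cKO, 387 to 478 CPM in fasted wild-type and 329 to 436 CPM in fed wild-type libraries. Fasted cKO replicate 1 lay within the fasted wild-type range and the other 4 fasted cKO libraries lay above it. Of the 3 tested markers 2 were higher in fasted cKO than in fasted wild type, and their part in the differences above was not tested.

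The response to fasting itself differed between genotypes for 6 of 53 members. Relative to wild type, 4 responded more positively in cKO and 2 more negatively, where 8.87% of all tested genes did the first and 8.44% the second (17.3% in all). The counts were 8 and 2 with fasted replicates 1 and 2 alone, 9 and 3 with replicates 3 to 5 alone, and 7 and 1 without fasted wild-type replicate 1. Without fasted cKO replicate 1, fed cKO replicate 4 or 5, fasted wild-type replicate 4 or fed wild-type replicate 1, 3 or 4 the second count was also 1. The shares above belong to the fit of all 20 libraries. With upper-quartile scaling the counts over all tested genes were 990 and 1366, in place of 1174 and 1117. This comparison uses the same libraries as the 4 comparisons above. Sec24a rose less in cKO (interaction -0.76 ± 0.17, adjusted p = 0.00264), at 0.41 in cKO and 1.17 in wild type. Its interaction was -1.17 with fasted replicates 1 and 2 alone and -0.46 with replicates 3 to 5 alone, past the threshold in each, and the cKO rise itself was lost with replicates 1 and 2 alone (0.24).

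**Figure D5:**
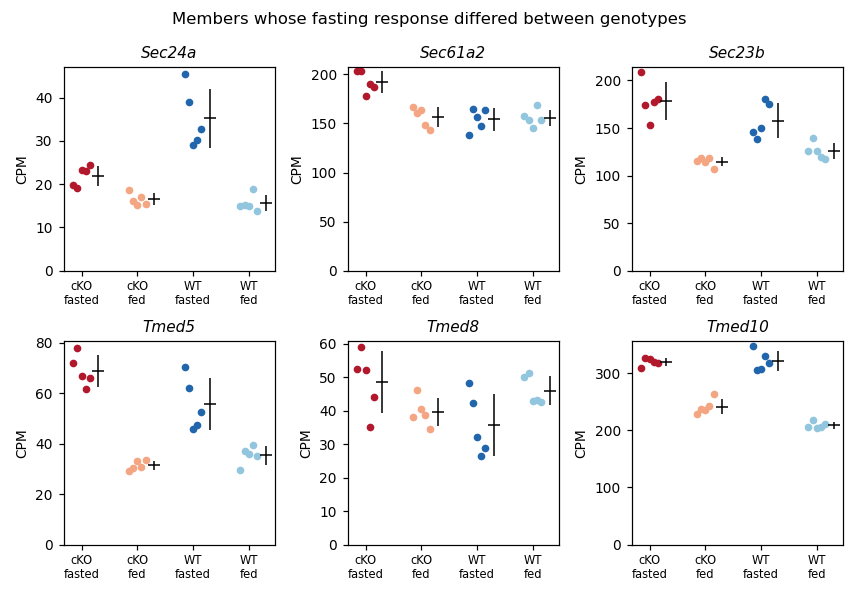
CPM (y axis, from 0) in each library of the 6 members whose fasting response differed between genotypes, with the mean and SD of each group. In Sec24a the fasted wild-type libraries are the highest, in Sec61a2 the fasted cKO libraries are, and in Tmed10 the fed cKO libraries lie above the fed wild-type ones.

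Sec61a2 rose in cKO (0.30) and did not pass in wild type (-0.01, interaction 0.31 ± 0.088, adjusted p = 0.0132). Tmed8 stood at 52.5, 59.1, 52, 35.1 and 44.1 CPM in the fasted cKO libraries and at 38, 46.1, 40.4, 38.8 and 34.7 CPM in the fed cKO libraries. In wild type, Tmed8 stood at 48.4, 42.2, 32.1, 26.6 and 28.9 CPM when fasted and at 49.98, 51.3, 42.8, 43.2 and 42.7 CPM when fed. In wild type the fasted replicates 1 and 2, at 48.4 and 42.2 CPM, lay above replicates 3 to 5, at 26.6 to 32.1 CPM, and the groups overlapped in both genotypes. The fasting change of Tmed8 was 0.29 ± 0.13 in cKO (adjusted p = 0.0699) and -0.37 ± 0.14 in wild type (adjusted p = 0.0199), and the interaction was 0.66 ± 0.19 (adjusted p = 0.0158). The wild-type fall was -0.04 with fasted replicates 1 and 2 alone and -0.65 with replicates 3 to 5 alone, and it was also lost without fasted wild-type replicate 4 or 5 or fed wild-type replicate 2. The interactions of Sec24a, Sec61a2 and Tmed8 were kept in every alternative.

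Tmed5 stood at 71.9, 78.2, 66.7, 61.7 and 66.1 CPM in the fasted cKO libraries and at 29.1, 30.4, 33.2, 30.9 and 33.4 CPM in the fed cKO libraries. In wild type, Tmed5 stood at 70.5, 62.3, 45.9, 47.6 and 52.7 CPM when fasted and at 29.5, 37.2, 35.8, 39.7 and 35.3 CPM when fed. All fasted libraries exceeded all fed ones, by 1.13 ± 0.10 in cKO (adjusted p = 3.94e-10) and 0.65 ± 0.10 in wild type (adjusted p = 3.43e-06). The interaction was 0.48 ± 0.14 (adjusted p = 0.0207) and was lost with fasted replicates 1 and 2 alone. Sec23b stood at 209, 174, 153, 177 and 181 CPM in the fasted cKO libraries and at 115, 119, 115, 118 and 107 CPM in the fed cKO libraries. In wild type, Sec23b stood at 146, 139, 149.9, 180.3 and 175 CPM when fasted and at 126, 139.7, 126, 120.0 and 117 CPM when fed. The interaction of Sec23b, 0.31 ± 0.11 (adjusted p = 0.0488), was lost in 22 of 31 alternatives, including the fits without any one fed cKO replicate, fasted cKO replicate 1, 2, 4 or 5, fasted wild-type replicate 1, 2 or 3, or fed wild-type replicate 1, 2, 3 or 4, and was 0.58 with fasted replicates 1 and 2 alone and 0.15 with replicates 3 to 5 alone. Tmed10 rose less in cKO, 0.41 ± 0.05 against 0.63 ± 0.05 in wild type (interaction -0.22 ± 0.071, adjusted p = 0.0325), and the fasted groups overlapped while the fed groups did not. That call was lost in 10 alternatives, with adjusted p up to 0.0756, among them the fits without fasted cKO replicate 1, fed cKO replicate 4 or 5, fasted wild-type replicate 1 or 4, or fed wild-type replicate 1, 3 or 4.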

How the data were processed

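Neurons were sorted by tdTomato and their RNA was amplified with the SMART-seq v4 kit in 15 PCR cycles before Nextera XT library preparation, per the labels' protocols. These kits do not mark strand, so reads from overlapping genes on opposite strands cannot be told apart. The submitters' processing notes name Trimmomatic 0.36, HISAT2 2.1.0, featureCounts of Subread 1.6.2, DESeq2 1.20.0 and the mouse build GRCm38 (mm10). Which annotation was counted, and with which strand setting, was not given in the sources used here. Per the file headers, the authors deposited raw counts per gene, and a second deposited table held the same counts divided by a size factor per library (a signal, equal to the counts over DESeq2 size factors within 2.16e-11), which was not tested.

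Genes were filtered with edgeR's filterByExpr (minimum count 10, minimum total 15). All 20 libraries were fitted in 1 model with a mean for each of the 4 groups, using TMM factors and the edgeR 4.0.16 quasi-likelihood test in R 4.3.3, with Benjamini-Hochberg adjustment of p over all 13237 tested genes. Errors of log2 fold changes are standard errors (SE), those of CPM are SDs over 5 libraries. The procedure was also run on simulated data with few changed genes. Many more changed with fasting here, so no error rate for these data is taken from that run. Alternatives were the DESeq2 1.42.0 Wald test and size factors, upper-quartile factors, no filter, a minimum of 1 CPM in 5 libraries, a robust fit, only the groups compared, a replicate block, GC and length offsets (mgcv 1.9.3), fasted replicates 1 and 2 or 3 to 5 alone, and leaving out each library. The offsets combined with the block were added after seeing the data. Exon lengths, GC content and overlaps came from GENCODE M21, in which 22071 of the 23129 names (95.4%) were found.

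At 3 counts the detection floor was 0.207 to 0.387 CPM in a library, which covers counting error only. Members given library by library were, in each comparison, those past an adjusted p of 0.05 with the smallest p, up to 3 in a role and up to 8 in a direction, and up to 4 genes of each pathway list were named by the same rule. Sec24d was given library by library after its values were seen. The members and lists were chosen with earlier results of these data known. No set test was run.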

Additional observations from a re-analysis of the deposited data

Results flagged for a closer look

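Among 212 sets of 5 libraries (53 members in 4 groups), 13, or 6.13%, held a library far from the other 4, and chance alone gives about 1 in 20. Fasted cKO replicate 2 was that library in 4 of them: 649 CPM for Sec61b, 501 for Sec61g and 391 for Sec11c, above the others, and 210.2 for Sec23a, below them. Of the other fasted cKO libraries, replicate 4 had 13.3 CPM of Srp54a, below the rest, and replicate 5 had 99.7 of Tmed9, above them. In fed cKO, replicate 2 had 189 CPM of Ssr2, below the other 4. In fasted wild type, replicate 5 had 26.8 CPM of Sec22c, above the others. In fed wild type, replicate 4 had 6.85 CPM of Srp54a, below the others, and 18.9 of Sec24a, above them. Replicate 5 of that group had 217 CPM of Sec62 and 1.53 of Sec31b, both above, and replicate 3 had 212 of Sec11a, below.

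The fasting response differed between the genotypes, by the interaction term, for 6 members. The difference of the log2 fold changes (cKO minus wild type) was 0.312 for Sec61a2, 0.308 for Sec23b, 0.481 for Tmed5 and 0.663 for Tmed8, and it was -0.76 for Sec24a and -0.219 for Tmed10.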

How the results depend on the processing

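Calls of the fasting comparisons were the most stable: 39 of 42 in cKO and 36 of 45 in wild type passed under every alternative. For cKO against wild type this held for 1 of 2 in fed and 2 of 7 in fasted mice, and for the interaction for 3 of 6. Leaving out 1 library gave, in cKO fasting, 38 to 40 members higher and 2 to 3 lower (median 0.55 to 0.58), and in wild-type fasting 38 to 39 and 4 to 6 (0.47 to 0.55). It gave 1 to 2 and 0 to 2 in fed mice (-0.07 to -0.04), 2 to 8 and 2 to 3 in fasted mice (0.01 to 0.04), and 3 to 7 and 1 to 3 for the interaction (0.05 to 0.09). In fed mice (2 higher, 0 lower), no filter gave 1 higher, the GC and length offsets 1 lower with or without the replicate block, and the fed groups fitted alone 10 lower. In fasted mice (5 higher, 2 lower), the offsets gave 2 higher, and 2 higher and 4 lower with the block. Fasted replicates 3 to 5 alone gave 10 and 6, the fasted groups fitted alone 1 and 1, and upper-quartile factors 6 lower. For the interaction (4 higher, 2 lower), 8 were higher with fasted replicates 1 and 2 alone, 9 with replicates 3 to 5, and 1 was lower with no filter. The shares of all tested genes given in the Results belong to the fit of all 20 libraries, not to these alternatives. With fasted replicates 1 and 2 alone, 3 values that passed in the main fit or in this one changed sign. They were Tmed4 in wild-type fasting (-0.0544), and Srp68 (0.39) and Copb1 (0.225) in cKO against wild type when fasted. Sign changes of values that passed in neither fit were not counted. The cause was not tested.

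The replicate block gave 40 higher and 3 lower in cKO fasting, 39 and 6 in wild-type fasting, 2 and 0 in fed mice, 6 and 4 in fasted mice, and 3 and 2 for the interaction. Libraries with the same number correlated at -0.045 to 0.131 in their deviations, best with their own number in 1 or 2 of 5, so the numbers were not taken as pairs. Between fasted cKO and fasted wild type the correlations ran from 0.022 to 0.131, and in the other comparisons from -0.045 to 0.037. This check matches single numbers and does not cover a difference of fasted replicates 1 and 2 from 3 to 5. Depth limits Sec31b and Copz2, with at most 19 and 23 counts, and precision is set by 5 libraries a group.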
